A study of Canis lupus familiaris with 2 samples.

Results

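The first 3 Mb of the 38 dog autosomes are the sequence next to the centromere: these chromosomes have a single arm, and dog assemblies number them from the centromere end. They were read as fixed windows of 100 kb, from position 1 to 3000000 of chromosomes 1 to 38, in the canFam3 build. A window was used where at least 50 CpG sites had 5 or more calls in both libraries. That left 1139 of 1140 possible windows, out of 23275 windows of this kind on the autosomes and chromosome X. The window left out, on chromosome 7 from 1700001 to 1800000, listed 59 sites and kept 9. The member with the fewest kept sites, 103, lay on chromosome 16 from 1400001 to 1500000. At the other limit of the rule, the 38 windows from position 2900001 had a median control level of 56.5%, and the 38 windows just beyond 3000000 had 60.1%.

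The cells were MDCK, an established epithelial line from dog kidney. The control culture was untreated and was grown for 30 days next to a culture given TGF-beta, a secreted signal known for inducing epithelial-mesenchymal transition, at 5 ng/ml. The labels call the control epithelial and the treated culture mesenchymal, and methylation data alone give no check of those states. Each group has 1 library, so nothing here could be checked against replicates, and an effect of the treatment cannot be told apart from a difference between any 2 cultures.

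Methylation of CpG cytosines is kept up through cell division by the maintenance methyltransferase DNMT1 and laid down by DNMT3A and DNMT3B. Sequence beside centromeres often holds tandem satellite repeats and recent duplications, and satellite repeats are usually heavily methylated in differentiated cells. Many cultured lines also have long partially methylated domains, in which methylation of CpG-poor sequence falls over long stretches while active domains stay high. CpG-dense promoters usually stay unmethylated in either setting. The comparisons here ask whether the centromere ends differ from the rest of each chromosome, and whether they differ between the cultures. No gene annotation or genome sequence of this build was used, so genes, repeats and sequences are not named.

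A window's level is the share of all its calls that were methylated, in percent. The 1139 windows held 1500985 kept sites, with 39371685 calls in the control (26.2 per site) and 67675609 under TGF-beta (45.1 per site). Pooled, they were at 68.4% in the control and 70.0% under TGF-beta, where the rest of the autosomes was at 65.7% and 67.2%. Exact binomial 95% intervals of the pooled first 3 Mb were 68.4 to 68.4 and 70.0 to 70.0. Such intervals cover counting error only, since calls from the same DNA molecule are not independent. When every site had equal weight, the first 3 Mb was at 67.3% in both libraries.

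Single windows covered a wide range of levels. In the control the lowest was 24.9%, the median 64.9% (quartiles 46.9 and 78.6) and the highest 94.1%. Under TGF-beta the lowest was 27.3%, the median 64.6% (quartiles 49.1 and 78.3) and the highest 94.8%. The rest of the autosomes, with 20897 windows, had medians of 61.7% and 62.0%. Control levels under 50%, the range of partially methylated sequence, were found in 340 members (29.9%), against 37.4% of the windows in the rest. Levels of 75% or more were found in 368 members (32.3%), against 29.9%. Of the 340 low members 298 were also under 50% under TGF-beta and none was at 75% or more. Of the 368 high members 327 stayed at 75% or more and none fell under 50%. Across members the libraries were closely related (r = 0.979 over 1139 windows, which are neighbours and share libraries), as they were in the rest (r = 0.976).

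Low and high members formed long stretches. On chromosome 21, 20 adjacent windows from 1000001 to 3000000 lay between 34.2% and 43.9% in the control (median 38.2%) and had a median of 42.1% under TGF-beta. On chromosome 4 the same 20 positions had medians of 34.0% and 35.4%. On chromosome 14, 17 adjacent windows from 1200001 to 2900000 had medians of 33.5% and 39.5%. At the other extreme, 13 adjacent windows on chromosome 22 from 1700001 to 3000000 had medians of 82.4% and 84.4%, and 13 on chromosome 38 from 1600001 to 2900000 had 79.9% and 79.7%. The centromere end therefore carried no single state: 4 autosomes had 20 or more members under 50%, and 5 autosomes, chromosomes 7, 9, 22, 35 and 37, had none.

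The extremes among members with at least 200 kept sites were on different chromosomes. The lowest control level was on chromosome 30 from 300001 to 400000, at 24.9% (10094 calls), and the window was at 28.0% (27.2 to 28.8) under TGF-beta. Density-matched windows of that chromosome had a median of 77.0% in the control. The next lowest were on chromosome 14 from 2600001 to 2700000, at 25.3% and 28.5%, and from 1900001 to 2000000 on chromosome 4, at 26.3% and 27.3%. The highest were on chromosome 2 from 2500001 to 2600000, at 94.1% (93.8 to 94.4, 24491 calls) and 94.8%, on chromosome 10 from 1400001 to 1500000, at 94.0% and 94.2%, and on chromosome 35 from 900001 to 1000000, at 93.9% and 94.7%. The 3 lowest and the 3 highest windows thus stayed at the low or the high end in both cultures.

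Members held more CpG sites than other windows. Their median density was 11.1 listed sites per kb (quartiles 7.62 and 17.8), against 8.22 in the rest of the autosomes and 17.6 in the last 3 Mb, at the telomere end. The mean density of members exceeded that of the rest on 25 of 38 autosomes, most on chromosome 9 (37.7 against 13.4 per kb) and chromosome 17 (34.1 against 9.39). On chromosome 21 it was lower, at 5.95 against 9.16. The level was higher in denser classes: the 110 members of 4 to 6 sites per kb had a median of 38.5% in the control, those of 8 to 10 sites 58.5%, and the 97 members of 30 or more sites 75.9%. Windows of the rest in these classes were at 38.1%, 66.6% and 75.9%. A comparison of the centromere end with the rest therefore needs windows of equal density.

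Each member was set against the median of the windows of the same chromosome, beyond position 3000000, in the same density class. At least 5 such windows were found for 1095 members. Of the 44 others most were on 3 chromosomes: 12 of 30 members could be matched on chromosome 17, 19 of 30 on chromosome 27 and 19 of 29 on chromosome 7. Matched in this way, members were lower by a median of 2.78 points in the control, with a member-minus-matched median of -2.78 (quartiles -14.5 and 9.95), and the median was -2.52 points (-13.1 and 10.1) under TGF-beta. By the mean of site levels the medians were -1.59 and -2.57. The standard deviation over members was 18.2 and 16.9 points. Unmatched, the medians were 3.82 and 3.10 points, so the sign of the difference depended on matching for density. Per chromosome, the mean member was below its matched windows on 20 and above on 18 in the control, and below on 21 and above on 17 under TGF-beta. No common direction was seen over the 38 centromere ends, and no test across replicates exists.

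The spread between chromosomes was wide. The lowest mean was -21.6 points on chromosome 14, where the first 3 Mb was at 48.3% (48.2 to 48.4) in the control, against 65.4% for the rest of that chromosome. Chromosome 30 followed at -20.04 points (54.7% against 71.3%) and chromosome 33 at -17.8 points (55.2% against 68.4%). The highest means were 18.8 points on chromosome 13 (74.95% against 64.2%), 18.1 on chromosome 38 (76.3% against 60.6%) and 14.1 on chromosome 29 (71.2% against 60.1%). Under TGF-beta the same 6 chromosomes had -16.9, -16.05, -17.4, 17.5, 16.0 and 13.1 points. The sign was the same in both libraries on 37 of 38 autosomes, all but chromosome 2, with 0.184 and -1.35 points. The order of the centromere ends was thus a property that the cultures shared (r = 0.987 over 38 chromosome means, a description).

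**Figure D1:**
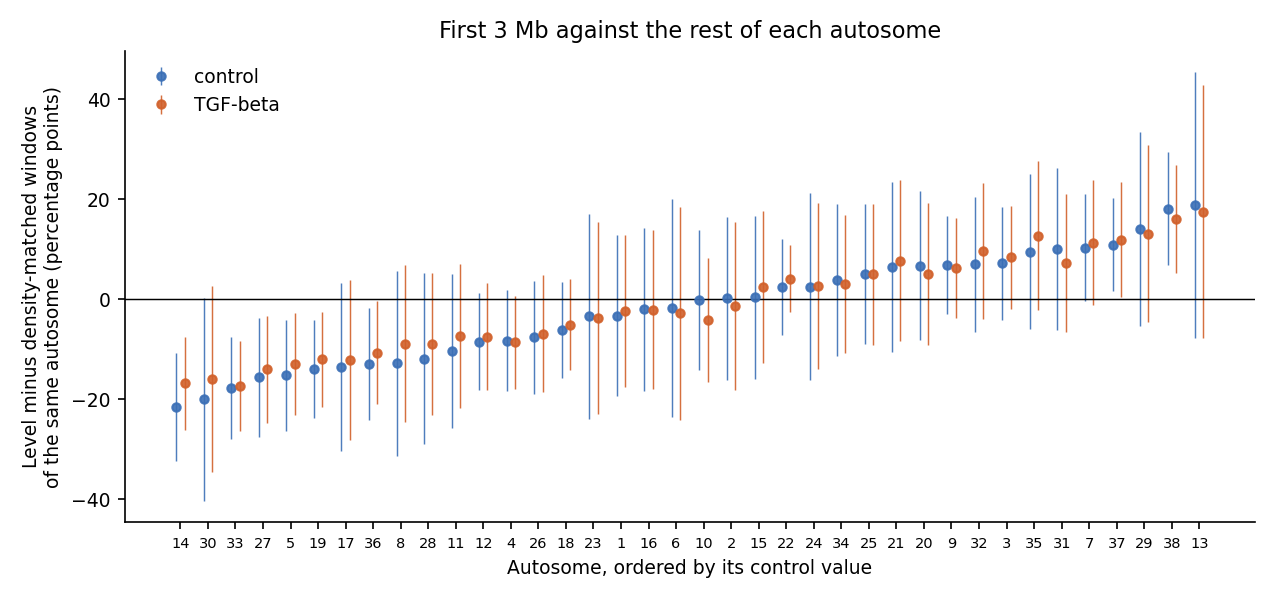
Mean difference of the members of each autosome from density-matched windows of the same autosome, in percentage points, for the control (blue) and TGF-beta (orange) libraries; bars are the standard deviation over the members of that autosome. The means run from -21.6 on chromosome 14 to 18.8 on chromosome 13 in the control, and the libraries share their sign on 37 of 38 autosomes.

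Blocks of 3 Mb elsewhere on the autosomes were as variable. With each window set against the median of its density class on its chromosome, the 38 first blocks had a mean of -1.40 points in the control (SD 8.92 over blocks) and the 690 other blocks 2.24 points (SD 8.20). Under TGF-beta these were -0.672 (SD 8.10) and 2.36 (SD 8.04). The class medians here took in the block's own windows, with no minimum of windows elsewhere. Where a class lay mostly in the first block, its windows were thus set largely against themselves, which draws their values towards 0. Chromosome 17, with 12 of 30 members matched elsewhere, was the clearest case, so its block mean and rank are partly fixed by this choice. Each autosome had between 8 and 41 such blocks, and how often any given block would rank lowest or highest was not worked out. The first block was the lowest of its chromosome on 6 autosomes, chromosomes 12, 14, 19, 28, 30 and 33, in both libraries. It was the highest on 0 in the control and on 1, chromosome 13, under TGF-beta. It ranked below the middle of its chromosome on 21 of 38.

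Position within the first 3 Mb had a weak pattern. Medians over windows were low from 100001 to 300000, higher between 500001 and 1000000 and low again beyond 2000001. In the control, the 76 windows from 100001 to 300000 had a median of 58.2%, the 190 from 500001 to 1000000 had 70.3% and the 380 from 2000001 to 3000000 had 58.7%. Under TGF-beta these medians were 57.2%, 70.7% and 59.9%. After matching, the control medians for the 3 ranges were -4.71, 0.987 and -4.60 points, with 23 of 38, 18 of 37 and 19 of 38 chromosomes below their matched windows. Under TGF-beta they were -8.28, -0.195 and -3.69 points, with 22 of 38, 17 of 37 and 22 of 38 chromosomes below. The first 100 kb was also low after matching, at -6.17 points in the control (22 of 37 chromosomes below) and -8.09 under TGF-beta (25 of 37).

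**Figure D2:**
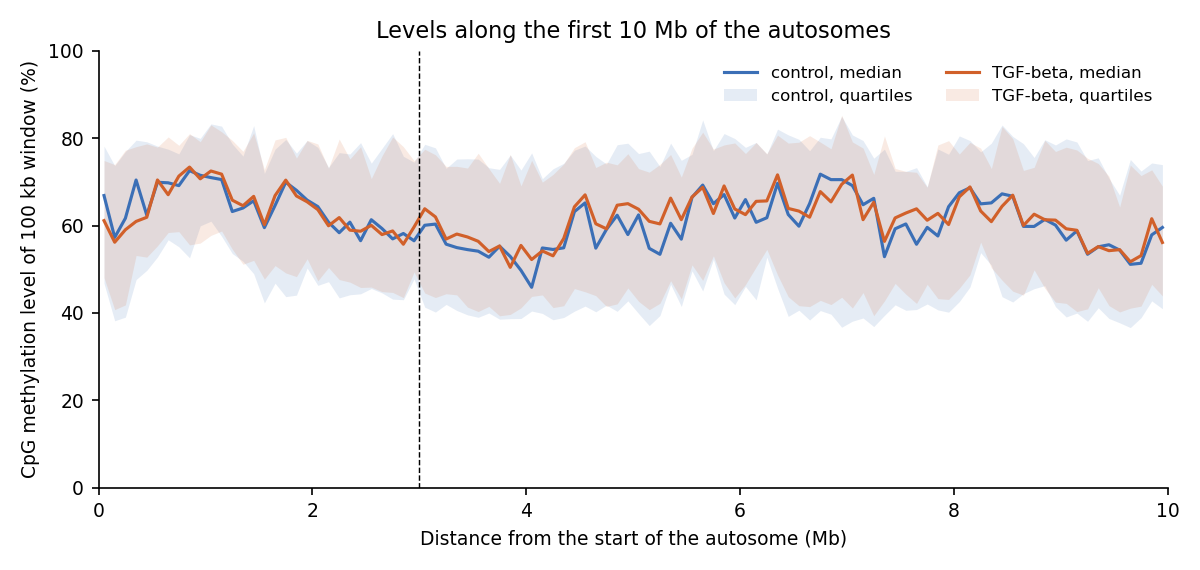
CpG methylation level of 100 kb windows (y axis, percent) by distance from the start of the autosome (x axis, Mb) over 10 Mb; lines are medians over the autosomes and bands the quartiles, in the control (blue) and TGF-beta (orange) libraries, and the dashed line marks 3 Mb. The medians between 0.5 and 1 Mb reach about the highest level of the stretch (70.3% and 70.7% over these windows), and the bands overlap along the whole axis.

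CpG-dense sequence at the centromere end was methylated more often than elsewhere when pooled, but unevenly over the chromosomes. Dense sequence was taken as windows of 1000 bp that listed 40 or more sites. Of 9181 such windows in the first 3 Mb, 661 (7.20%) were under 10% in the control, against 13.6% of 71756 in the rest of the autosomes. Under TGF-beta the shares were 6.96% and 13.3%. The share was below that of the rest of the same chromosome on 21 of 38 autosomes. Chromosomes 9, 17, 18, 7 and 16 held 47.7% of the dense windows of the first 3 Mb, and their shares were 4.90%, 0.792%, 0%, 3.52% and 0.939%, against 25.7%, 25.3%, 16.0%, 24.3% and 10.95% in the rest of those chromosomes. The share on chromosome 18 was 0 of 694 dense windows, which are neighbours in the same stretch and not independent, so no bound is given. In the other direction, chromosome 12 had 50.0% of 166 dense windows under 10%, against 18.5% in its rest. The 661 unmethylated windows stayed so: 605 (91.5%) were also under 10% under TGF-beta, 4 reached 20% or more, and their medians were 1.17% and 1.74%. In the rest of the autosomes 92.5% stayed under 10%.

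Less dense 1 kb windows were compared by mean site level. By this measure dense windows were at 70.1% in the first 3 Mb and 60.2% in the rest in the control. In windows of 5 to 9 and of 10 to 19 listed sites the order was the opposite. In windows of 5 to 9 listed sites, the mean site level was 57.6% in the first 3 Mb and 59.2% in the rest in the control, and 57.5% and 59.6% under TGF-beta. In windows of 10 to 19 sites it was 66.5% and 68.5% in the control, and 66.1% and 68.7% under TGF-beta. In the control the first 3 Mb was the lower on 20 and 19 of 38 autosomes in these classes, so the direction differed between chromosomes here too. Windows of 20 to 39 sites were at 72.1% in both the first 3 Mb and the rest in the control, and at 71.9% and 72.4% under TGF-beta.

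The first 10 kb of many autosomes stood apart in depth and level. This stretch was singled out after its values were seen. It held 8393 kept sites over the 38 autosomes, and 48.2% of them were deep, meaning over 3 times the autosomal median of calls per site in at least 1 library (medians of 23 calls in the control and 38 under TGF-beta). Beyond 3000000 the share was 3.81%. The deep sites of the first 10 kb were at 90.4% in the control and 89.8% under TGF-beta, with 170 and 133 calls per site. The other sites of the same 10 kb were at 65.2% and 62.6%. The share of deep sites fell off with distance, to 17.9% from 10001 to 20000, 8.44% from 20001 to 50000, 5.16% from 50001 to 100000 and 4.06% from 100001 to 500000. Deep sites beyond 3000000 were at 69.2% and 70.2%, lower than those of the first 10 kb. These sets were not matched for density. In windows that were both dense and deep in the control, the gap was smaller. The 85 such windows of the first 100 kb had medians of 91.5% in the control and 91.2% under TGF-beta. The 70 in the rest of the autosomes had 85.6% and 86.8%.

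On 12 autosomes the median site of the first 10 kb had over 3 times the control median: chromosomes 5, 8, 10, 12, 15, 16, 20, 25, 28, 29, 35 and 38. Their levels lay between 81.2% and 93.2% in the control (median 90.0%) and between 70.4% and 93.4% under TGF-beta (median 88.4%), at 24.5 to 81.3 listed sites per kb. Chromosome 29 had 813 kept sites there, at 93.2% (93.1 to 93.4) and 93.4% (93.2 to 93.5), with medians of 143 and 112 calls per site. Chromosome 35 had 452 sites at 86.5% and 85.3%, with 167 and 152 calls, and chromosome 16 had 521 sites at 92.2% and 91.6%, with 109 and 66 calls. The other 26 autosomes had a median level of 49.4% in the control over a range of 6.34% to 94.6%, and a median density of 12.85 sites per kb. Of these, chromosomes 17 and 32 had 1 and 3 kept sites. These levels were not matched for density. The 15 windows of 1 kb with at least 40 listed sites in the first 10 kb of the other autosomes had medians of 81.1% and 83.9%. High methylation was also seen without depth, on chromosome 3 (94.6% and 95.02%, with 28 and 42 calls per site). With sites weighted equally, the 12 lay between 72.7% on chromosome 12 and 92.8% on chromosome 29 in the control, and between 70.0% and 92.8% on the same chromosomes under TGF-beta. Chromosome 28 was at 73.7% and 71.1% by that measure. Whether the cells hold more copies of this sequence than the assembly does was not tested.

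**Figure D3:**
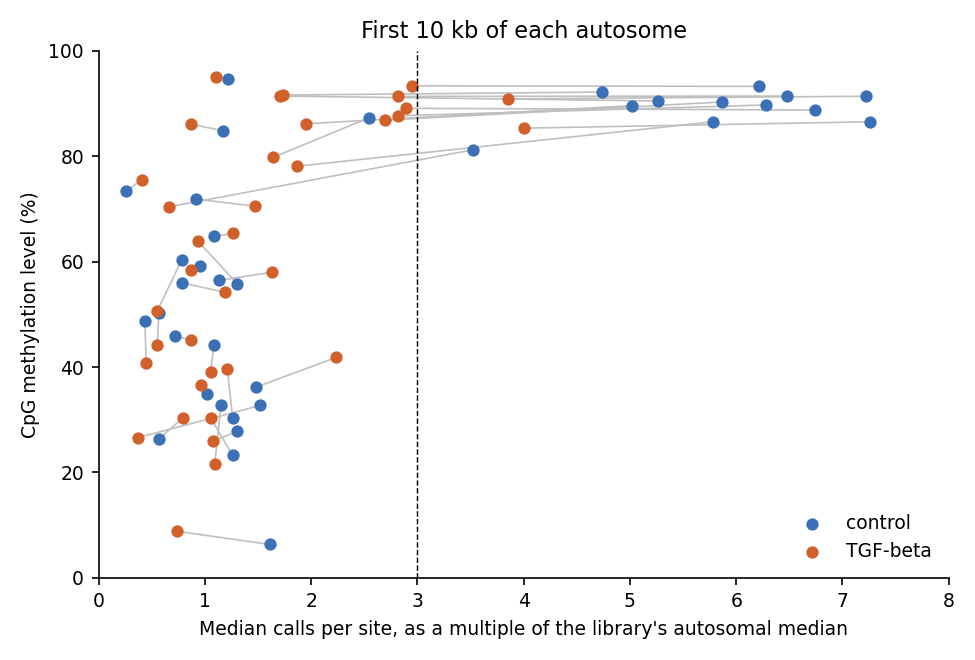
Methylation level of the first 10 kb (y axis, percent) against the median calls per site as a multiple of the library's autosomal median (x axis) for the 36 autosomes with at least 20 kept sites there, in the control (blue) and TGF-beta (orange) libraries; a grey line joins the points of an autosome and the dashed line marks 3 times the median. The 12 autosomes past the line in the control are at 81.2% to 93.2%, and all have a lower multiple under TGF-beta.

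Relative to each library's median, this sequence took fewer calls under TGF-beta. All 12 autosomes had a lower multiple there, with a median log2 ratio of relative depth of -1.21 (range -2.42 to -0.86), and 2 of the 12 were still over 3 times the median, chromosomes 35 and 38. These 12 were picked by control depth, which favours a lower value in the other library. Elsewhere on the autosomes the 10100 windows of 1 kb picked by the same control depth had a median of -1.21 as well, but these list a median of 7 sites. Among windows that were both dense, with at least 40 listed sites, and deep in the control, the 85 of the first 100 kb had a median of -1.12 and the 70 in the rest of the autosomes -0.17. Picked by density instead, the 77 windows of 1 kb with at least 40 listed sites in the first 10 kb, on 19 autosomes, were at a median of 91.3% and 91.0% and had a median log2 ratio of -0.96 (quartiles -1.27 and -0.71), with 64 of 77 below 0. Dense windows from there to 3000000 had 0.48, and 71756 dense windows in the rest of the autosomes had 0.44. The 15 of the 77 that lay on other autosomes than the 12 had 0.51. Counts of this kind compare 2 libraries, and whether copies or coverage differed between them was not tested.

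The members with the highest depth relative to their matched windows in the control were highly methylated by summed calls, but less so by the mean of site levels. Chromosome 16 from 1 to 100000 had 136 calls per site in the control, against 21.5 in its matched windows, and was at 88.4% and 85.4%. Chromosome 1 from 100001 to 200000 had 130 calls per site, against 30.9, and was at 85.7% and 82.3%. Chromosome 15 from 1 to 100000 had 86.9 against 23.2, and was at 83.5% and 80.5%. In each of these 3 windows summed calls lay above the mean of site levels, which was 80.0%, 68.5% and 62.8% in the control.

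The TGF-beta library was close to the control over the first 3 Mb. Summed calls gave a median difference, TGF-beta minus control, of 0.904 points over 1139 members (quartiles -0.799 and 2.78), with 748 members above 0. By the mean of site levels the median was -0.0878 points (quartiles -1.41 and 1.01), with 548 members above 0, so the direction depended on whether sites were weighted by their calls or equally. With deep sites, those over 3 times the library's autosomal median of calls, left out, summed calls gave 0.929 points. In the rest of the autosomes the medians were 0.663 and 0.284 points. Set against density-matched windows, the members' difference was 0.431 points by summed calls and -0.478 by the mean of site levels. The chromosome means of the former were above 0 on 26 of 38 autosomes, and those of the latter below 0 on 28. For single members, the libraries differed by a median size of 1.98 points, and the strands of 1 library by 1.45 points in the control and 1.82 under TGF-beta. Strands are read from different fragments, so their difference is a measure of spread within a library. Relative depth under TGF-beta was lowest in the members of chromosome 25 (median log2 ratio -0.51), which had median differences of 1.67 points by summed calls and -0.0784 by site levels. On chromosomes 31, 21 and 3 the log2 ratios were -0.31, -0.21 and -0.21, with 0.979, 3.005 and 1.62 points by summed calls and -1.37, -1.25 and 0.543 by site levels.

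**Figure D4:**
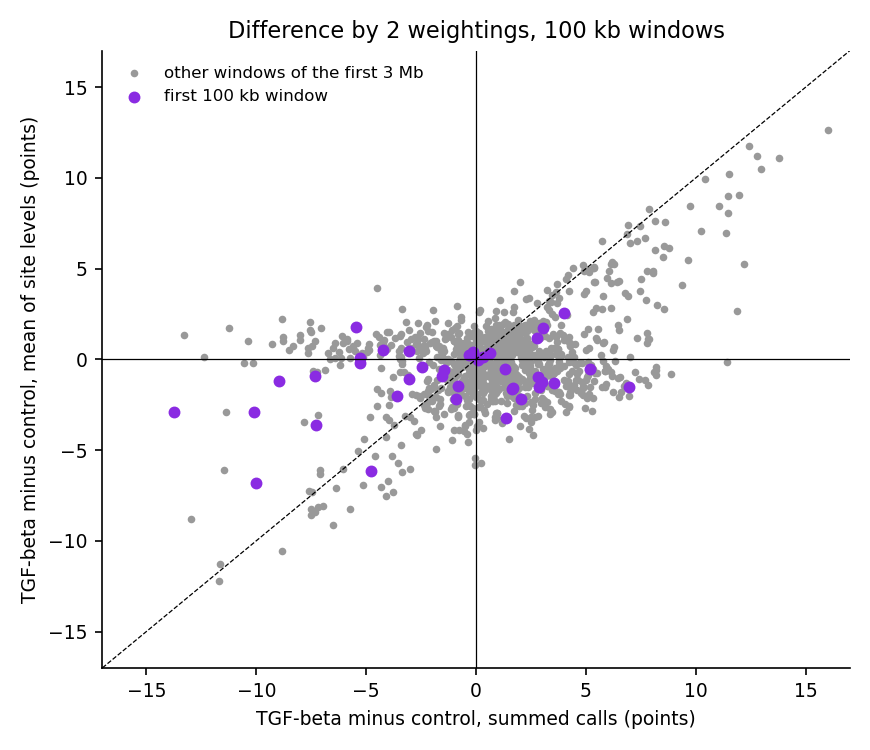
Difference of each member, TGF-beta minus control in percentage points, by summed calls (x axis) and by the mean of site levels (y axis); purple points are the first 100 kb window of each autosome, grey points the other members, and the dashed line marks equal values. Many windows that are lower by summed calls, those of chromosomes 12 and 28 at the start among them, lie within 3 points of 0 on the y axis, whereas 14 of the 16 windows higher by 10 points or more stay at 5 or more.

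Large differences were few. At 10 points or more, 16 members (1.40%) were higher under TGF-beta, against 2.32% of the 23275 windows of the autosomes and X, and 14 (1.23%) were lower, near the 1.46% of all windows. In the first 1 Mb the share lower was 2.37%. By the mean of site levels 6 (0.527%) were higher and 3 (0.263%) lower, against 1.26% and 0.597%. Of the 16 higher members, 14 kept 5 points or more by site levels and 1 changed sign. Of the 14 lower members 5 kept 5 points, 9 were within 3 points of 0 and 4 changed sign. On both strands, and in 1 direction, 24 members differed between the libraries by at least 10 points. Strands of the same library differed by that much in 4 members in the control and 24 under TGF-beta. The like count between libraries, on a single strand, was 41 members on the plus and 32 on the minus strand.

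Of the 5 largest gains, 4 were in windows below their matched windows in the control. Chromosome 28 from 800001 to 900000 was at 36.2% in the control (35.6 to 36.8 in 23423 calls) and 52.2% under TGF-beta (51.7 to 52.8 in 31919), with differences of 16.0 and 15.5 points on the strands and 12.6 points by site levels. Its neighbour from 700001 to 800000 went from 42.5% to 55.2%. The 3 adjacent windows from 700001 to 1000000 were together at 39.95% (39.6 to 40.3) and 52.8% (52.5 to 53.1), a difference of 10.09 points by site levels. Windows of chromosome 28 matched to the one from 800001 had medians of 71.4% and 70.8%, and those matched to the one from 700001 had 64.0% and 64.5%, so both stayed below them. The others were on chromosome 24 from 2400001 to 2500000, from 51.9% to 65.6%, on chromosome 8 from 2700001 to 2800000, from 47.9% to 60.9%, and on chromosome 37 from 2800001 to 2900000, from 68.0% to 80.4%, where matched windows were at 67.0% in the control. By site levels these 3 gained 11.1, 10.5 and 11.7 points. Pairs of adjacent windows higher by 10 points were also found on chromosome 21 from 400001 to 600000, at 60.7% and 72.4%, on chromosome 30 from 2100001 to 2300000, at 57.2% and 69.3%, on chromosome 37 from 2800001 to 3000000, and from 2700001 to 2900000 on chromosome 8. No adjacent pair was lower by that much.

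The largest losses depended more on the weighting of sites. Chromosome 12 from 1 to 100000 was at 61.8% in the control (61.3 to 62.3 in 35249 calls) and 48.1% under TGF-beta (47.5 to 48.6 in 32978), but went by site levels only from 49.3% to 46.4%. Chromosome 30 from 2600001 to 2700000 went from 68.8% to 55.5% by summed calls and by 1.36 points the other way by site levels. Chromosome 28 from 1700001 to 1800000 went from 76.7% to 64.4%, with 0.131 points by site levels. By contrast, chromosome 24 from 900001 to 1000000 went from 74.98% to 63.3% and by -12.2 points by site levels, and chromosome 10 from 2700001 to 2800000 from 83.2% to 70.2% and by -8.82 points. These last 2 windows thus differed by either weighting.

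The first 100 kb window showed the same dependence. In 9 of 38 autosomes it was lower by 5 points or more under TGF-beta by summed calls, and 7 of these were among the 12 with a deep first 10 kb. By site levels 1 of the 9, chromosome 20, was lower by 5 points (77.6% and 70.7%), and the median of the 9 was -1.18 points. With deep sites left out, chromosome 20 again was the only one of the 9 lower by 5 points, at 76.2% and 66.1%. Chromosome 25, outside these 9 with -4.78 points by summed calls, was lower by site levels, at 82.6% and 76.4%. On chromosome 12 deep sites gave 47.0% of the control calls of this window and 17.9% of the TGF-beta calls. On chromosome 10 they gave 71.3% and 46.2%, and its level of 79.4% and 69.3% became 59.5% and 54.9% without them. Over all autosomes the first 100 kb was lower on 27 of 38 by site levels (median -0.963 points, quartiles -1.61 and 0.0922) and on 21 by summed calls (median -0.569). The windows from 100001 to 300000 were lower on 26 by site levels (median -0.758) and on 17 by summed calls (median 0.499), so the direction there depended on the weighting. Between 300001 and 500000 the counts were 14 (median 0.163) and 16 (median 0.946).

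At the scale of 1000 bp, each window of the genome with at least 5 kept sites was tested on its summed calls (Fisher's exact test, two-sided), and p-values were adjusted over the 1497924 windows by the Benjamini-Hochberg method. A call needed an adjusted p under 0.05 and 20 points of difference. Such tests on reads compare 2 libraries, not the conditions. Of 80072 windows tested in the first 3 Mb, 1242 (1.55%) were called higher under TGF-beta, against 2.22% of all windows, and 985 (1.23%) lower, against 1.43%. Dense windows were called less often, so windows of like density were compared. In the class of 5 to 9 listed sites 2.64% were called higher and 2.38% lower, against 3.29% and 2.36% in the rest of the autosomes. Within windows of 10 to 19 sites the shares were 1.41% and 0.990%, against 1.95% and 0.918%, and within 20 to 39 sites 0.537% and 0.202%, against 0.671% and 0.284%. At 40 or more sites they were 0.251% and 0.0871%, against 0.429% and 0.141%. The share of gains was thus smaller in the first 3 Mb in all 4 classes, while that of losses was smaller in the denser classes and slightly larger in the others. In the first 100 kb alone, the share called higher was 0.930% of 2688 windows and the share called lower 1.93%. With 20 points required by site levels as well, 427 windows of the first 3 Mb were higher and 313 lower.

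Calls were uneven over the chromosomes. The share called higher ran from 0.253% on chromosome 17 to 5.06% on chromosome 28, where 99 of 1956 windows were called higher and 16 lower. The share called lower ran from 0.0680% on chromosome 9 to 3.37% on chromosome 33, where 64 of 1897 were called lower and 23 higher. On chromosome 25, low in TGF-beta depth, 4.16% were called higher and 2.67% lower. Chromosome 28 is also the one with the 3 adjacent gaining windows above.

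Among called windows with at least 10 sites, 200 calls per library and 10 points on each strand, the largest gain was on chromosome 32 from 1222001 to 1223000. It went from 20.5% (16.1 to 25.6, 297 calls) to 80.0% (75.3 to 84.2, 330 calls), with an adjusted p of 2.08e-49 in Fisher's exact test and 55.5 points by site levels. The next were on chromosome 20 from 2290001 to 2291000, from 38.2% to 88.4% (15.05 points on the plus and 58.2 on the minus strand), and on chromosome 27 from 2864001 to 2865000, from 20.3% to 67.8%. The largest loss was on chromosome 15 from 2404001 to 2405000, from 68.4% (62.0 to 74.3, 231 calls) to 20.8% (17.2 to 24.7, 481 calls), with -45.5 points by site levels. On chromosome 25 from 199001 to 200000 summed calls fell from 72.0% to 25.2%, whereas site levels were 45.3% and 47.8%. On chromosome 7 from 2303001 to 2304000 the level went from 59.5% to 13.3%, with -37.9 points by site levels. All but the window of chromosome 25 thus kept their direction with sites weighted equally.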

How the data were processed

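The authors deposited count tables without a header: 1 line per CpG cytosine and strand, with its count of methylated and of unmethylated calls. Bismark and Bowtie 0.12.8 with canFam3 are named in the submitters' processing notes, while the labels' extraction protocol names SOAPaligner2. Whether duplicates were removed is not given in the sources used here. The methylated column was identified from mitochondrial DNA, at 0.211% and 0.329% by that column. Adjacent cytosines were joined into 25888236 sites, of which 90.6% list both strands. The control library holds 656122583 calls and the TGF-beta library 1019766599. In each file 1 line names no chromosome and was left out.

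Groups follow the labelled agent. Levels are summed calls. Density classes start at 0, 4, 6, 8, 10, 12, 15, 20 and 30 listed sites per kb. Rules for named windows were the lowest and highest control level (3 each), the largest gain and loss (5 each, at least 200 kept sites and 5 points on each strand), the highest relative depth (3), the chromosomes with extreme matched means (3 each) and the 1 kb windows with the largest gain and loss (3 each). The windows, rules and lists were chosen with earlier results of these data known. The exact test was tested on simulated data, with 200 of 100000 windows changed. Changes of 20 points were called in 44.5% of these windows and changes of 30 points in 98%. Simulated calls were drawn independently, unlike calls from the same DNA molecule, so the rate of false calls in these data was not tested. Alternatives changed coverage minimum, weighting, deep sites, stretch, strand, matching and thresholds. Software was scipy 1.17.1 and numpy 2.4.6 for tests, numba 0.67.0 and pandas 2.3.3 for sums, pyarrow 21.0.0 for reading, and matplotlib 3.10.9 for plots, under Python 3.11.15.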

Additional observations from a re-analysis of the deposited data

How the results depend on the processing

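Of 120 recomputed values, 96 stayed within their limits, 21 moved and 3 changed sign. For a median the limits were an interval of the main median that treats neighbouring windows as independent. For a share they were a fixed ratio to the main share, which is wide for large shares. In the control, the share of chromosomes below their matched windows was 52.6%. It was 44.7% in the first 1 Mb and 42.1% with no matching, and both counted as within limits. The median difference between libraries changed sign with the mean of site levels (-0.0878 points). It was 0.690 with a minimum of 10 calls, 0.702 by plus-strand and 0.673 by minus-strand calls. The matched medians changed sign with no matching (3.82 in the control and 3.10 under TGF-beta), where density differs. The 20 nearest windows by density gave -1.10 under TGF-beta. By site levels the TGF-beta median level was 62.7%. Median levels were 68.6% and 66.8% in the first 1 Mb, with a matched TGF-beta median of -3.90, and 62.3% and 62.9% in the first 5 Mb. The share of members higher by 10 points was 0.527% by site levels, and the share lower 0.263% by site levels and 2.37% in the first 1 Mb. At 5 points the shares were 11.3% and 6.76%, and at 20 points 0 and 0. For 1 kb windows, requiring 20 points by site levels left 0.533% higher and 0.391% lower, and 30 points 0.287% and 0.175%. In all 8 settings tried for 1 kb windows, the share called was below that of the rest of the autosomes in both directions. None of these settings was matched for density, and dense windows were called less often. At like density the share called higher stayed smaller in each class, but the share called lower did not. In the classes starting at 5 and at 10 listed sites it was 2.38% and 0.990%, against 2.36% and 0.918% in the rest. In the denser classes it was smaller. Leaving out chromosomes 3 and 25 or, as an alternative chosen after seeing the data, the first 100 kb moved none of these values past their limits. With 1 library per group no replicate could be left out, and no paired analysis was possible because each group has a single sample. Depth limits the precision of single 1 kb windows.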

Other observations

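Chromosome X lies outside the 38 autosomes. The single-arm layout given above was for the autosomes, so the start of X is not read here as a centromere end. The first 3 Mb of X differed in makeup from the rest of X. The 30 windows there held a median of 24.7 listed sites per kb, against 7.35 in the other 1209 windows of X. The median level in the control was 65.6%, and that under TGF-beta 66.5%, against 45.3% and 48.2% in the rest of X, and ranged from 44.8% to 89.7% in the control. By the mean of site levels the medians were 63.9% and 64.3%, against 47.3% and 46.5%. The median log2 ratio of calls was 0.67 at the start of X and 0.05 in its rest. The difference of levels within X was not matched for density.

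The last 3 Mb of the autosomes, at the telomere end, had a median level of 69.3% in both libraries over 1138 windows, and a median difference between libraries of 0.682 points by summed calls and -0.0197 by site levels. Of the first and the last 3 Mb, both thus had differences of opposite sign by the 2 weightings.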
